A study of Homo sapiens with 4 samples.

Results

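The genes described here are 9 genes of antigen presentation, taken by name from the 19974 protein-coding genes with distinct symbols on chromosomes 1 to 22 and X. Of these, 6 belong to the class I pathway (HLA-B, HLA-C, HLA-E, B2M, TAP1 and TAP2), and 3 to the class II pathway (HLA-DRA, HLA-DRB1 and their regulator CIITA). Each gene record and the 10 kb on both sides of it were read in 3 lists of peaks from chromatin immunoprecipitation sequencing. The chromatin came from MCF10A, an immortalised human mammary epithelial line that does not form tumours, grown in MEGM medium that held cholera toxin at 100 ng/ml. The groups were H3K4me3, H3K27me3 and H3K79me2, named for the histone mark the antibody was raised against, with 1 library each and an input DNA library whose values were not analysed here. The H3K4me3 antibody came from Millipore and the others from Abcam. The labels name no treatment contrast and no exposure to interferon. The comparison is therefore between class I and class II genes in cells grown in this 1 medium with cholera toxin. With 1 library per mark, nothing below has a replicate check or a test, the depth behind each peak is unknown, and the line stands for 1 genotype.

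Class I molecules display peptides from inside the cell on nearly all nucleated cells. HLA-B and HLA-C encode classical heavy chains, HLA-E a non-classical heavy chain seen by natural killer cell receptors, B2M the shared light chain beta-2 microglobulin, and TAP1 and TAP2 the subunits of the transporter that brings peptides into the endoplasmic reticulum. Class II molecules present peptides from taken-up proteins and are normally made by professional antigen-presenting cells. HLA-DRA and HLA-DRB1 encode the alpha and beta chains of HLA-DR, and CIITA is the transactivator that class II transcription depends on, itself inducible by interferon gamma in epithelial cells. H3K4me3 marks active and poised promoters, H3K79me2 the first part of transcribed genes, and H3K27me3 chromatin held by Polycomb.

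The RefSeq promoter table lists start sites for 6 of the 9 genes, and HLA-E, HLA-DRA and CIITA have no entry in it. The 250 bases before the start are shown for 4 class I pathway genes, whose starts lay in H3K4me3 peaks, and for HLA-DRB1, whose start lay in an H3K27me3 peak. They run 5′ to 3′ on the strand of the gene, in GRCh38.p14. Capitals mark 5 short motifs searched on both strands: the core of interferon regulatory factor sites (AANNGAAA), an NF-kB-like site (GGGANTNNC), the core of sites for CREB-type factors (TGACG), the CCAAT box (CCAAT) and a form of the class II X1 box (CAACNGATG).
B2M, chr15:44711267-44711516, plus strand: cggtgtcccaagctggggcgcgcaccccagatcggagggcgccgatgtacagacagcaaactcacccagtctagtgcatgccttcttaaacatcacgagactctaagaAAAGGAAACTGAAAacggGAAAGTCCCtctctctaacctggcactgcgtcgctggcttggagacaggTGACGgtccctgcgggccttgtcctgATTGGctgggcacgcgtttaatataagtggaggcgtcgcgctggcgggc
HLA-B, chr6:31357180-31357429, minus strand: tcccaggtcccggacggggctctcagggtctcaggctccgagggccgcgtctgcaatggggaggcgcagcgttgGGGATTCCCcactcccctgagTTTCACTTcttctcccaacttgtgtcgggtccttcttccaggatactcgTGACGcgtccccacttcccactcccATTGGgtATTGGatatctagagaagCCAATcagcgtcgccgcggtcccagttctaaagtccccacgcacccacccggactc
HLA-C, chr6:31272093-31272342, minus strand: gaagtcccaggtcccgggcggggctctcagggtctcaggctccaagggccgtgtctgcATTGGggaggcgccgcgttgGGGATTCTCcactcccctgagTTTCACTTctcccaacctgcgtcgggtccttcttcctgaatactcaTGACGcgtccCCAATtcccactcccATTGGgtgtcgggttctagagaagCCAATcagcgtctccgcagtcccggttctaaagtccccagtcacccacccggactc
TAP1, chr6:32853705-32853954, minus strand: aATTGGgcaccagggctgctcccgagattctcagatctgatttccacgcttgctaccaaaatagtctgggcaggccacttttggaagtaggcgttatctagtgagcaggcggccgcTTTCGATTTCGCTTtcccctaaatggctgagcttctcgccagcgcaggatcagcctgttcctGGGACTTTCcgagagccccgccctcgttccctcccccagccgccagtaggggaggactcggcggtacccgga
HLA-DRB1, chr6:32589849-32590098, minus strand: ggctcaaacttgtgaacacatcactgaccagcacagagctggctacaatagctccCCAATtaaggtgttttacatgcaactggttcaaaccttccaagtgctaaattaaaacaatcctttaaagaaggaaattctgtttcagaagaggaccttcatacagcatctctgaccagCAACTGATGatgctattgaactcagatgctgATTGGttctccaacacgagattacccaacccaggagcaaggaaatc

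The class I pathway promoters shared several of these motifs, though not in one order. HLA-B, HLA-C, B2M and TAP1 each had the interferon regulatory factor core and the NF-kB-like site, present in 20.3% and 13.2% of the 34961 windows of this length in the table. The core lay at -155 in HLA-B, -151 in HLA-C, -142 and -136 in B2M and -134 and -128 in TAP1 in bases before the start. In B2M and in TAP1 the 2 cores overlapped, and in HLA-B the NF-kB-like letters read as a match on both strands at the same place, -176 to -168. TAP2, not printed, held 2 overlapping cores at -62 and -56 and the CREB-type core at -35. That core was also in HLA-B, HLA-C and B2M, against 21.2% of all windows, and the CCAAT box was in 5 of the 6 genes, against 32% of windows. HLA-DRB1 differed: it had the X1 form at -77, found in 0.363% of all windows, with CCAAT boxes at -195 and -46, and had no match to the first 3 motifs. A second start listed for TAP1, inside the gene, had no match to any of the 5. HLA-B and HLA-C were alike in 226 of 254 aligned positions, or 89.0%. The sources used here do not say how reads that fit more than 1 HLA gene, or that differ from the reference allele, were placed, and their part in the peaks of the HLA genes was not tested.

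HLA-DRA and HLA-DRB1 had the reverse calls of the class I pathway genes in all 3 marks. For H3K4me3 and H3K27me3 a call required that 25% or more of the bases within 1000 bp of an end of the gene record lay in peaks. The call for H3K79me2 needed 25% of the 5000 bp inward from an end, or of the whole record where that was shorter. By this rule H3K4me3 was called at 6 of 6 class I pathway genes and 1 of 3 class II genes, against 67.9% of all protein-coding genes. H3K79me2 was called at the same numbers, 6 of 6 and 1 of 3, against 50.9% of all genes. H3K27me3 was called at 0 of 6 class I pathway genes and at 2 of 3 class II genes, HLA-DRA and HLA-DRB1, against 9.1% of all genes, a share to which 0 of 6 lies near. The class II gene with both active marks was CIITA, and the peaks behind those calls lay over the start of another gene, DEXI, as described below.

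Over the whole windows, H3K4me3 covered 13.3% to 38.3% of the class I pathway genes with their 10 kb surroundings, with a median of 19.0%. All 6 were above the median of all genes, 7.37%, and so was CIITA, at 12.1% close to the lowest of them. Of the 11746 bp of H3K4me3 peaks in the CIITA window, however, most came from neighbours. Peaks of 5957 and 3589 bp held the starts of DEXI and of CLEC16A, a gene beyond the record. Neighbours also counted in class I pathway windows: of 10901 bp at TAP1, the highest share, 1921 bp lay in its record. The TAP1 and TAP2 windows shared H3K4me3 peaks of 3141 and 3290 bp, which held the starts of TAP2 and PSMB8. They also shared H3K79me2 peaks of 2815 and 2852 bp, so the shares of these windows are not separate observations. For H3K79me2 the windows did not part the classes, since CIITA at 20.6% exceeded 4 of the 6 class I pathway genes. Every H3K79me2 peak in the CIITA window lay over DEXI or CLEC16A, though, so that share is not one of CIITA alone. HLA-B at 5.75% and HLA-C at 9.41% lay below the all-gene median of 14.5%. The HLA-DRA and HLA-DRB1 windows had 0 peaks of H3K4me3 and 0 of H3K79me2. For H3K27me3 the order was less clean, since HLA-B at 31.4% stood close to HLA-DRA at 32.4%, and HLA-E at 13.6% exceeded HLA-DRB1 at 5.33% and CIITA at 5.69%. HLA-C followed at 4.22%, TAP1 at 0.579%, and B2M and TAP2 had no H3K27me3 peak in the window. At least 500 bp of peaks in the window was found for H3K27me3 at 3 of 6 and 3 of 3 genes, against 43.5% of all genes. For H3K4me3 this looser count was 6 of 6 and 1 of 3 against 83.6%, and for H3K79me2 it was 6 of 6 and 1 of 3 against 72.3%.

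**Figure D1:**
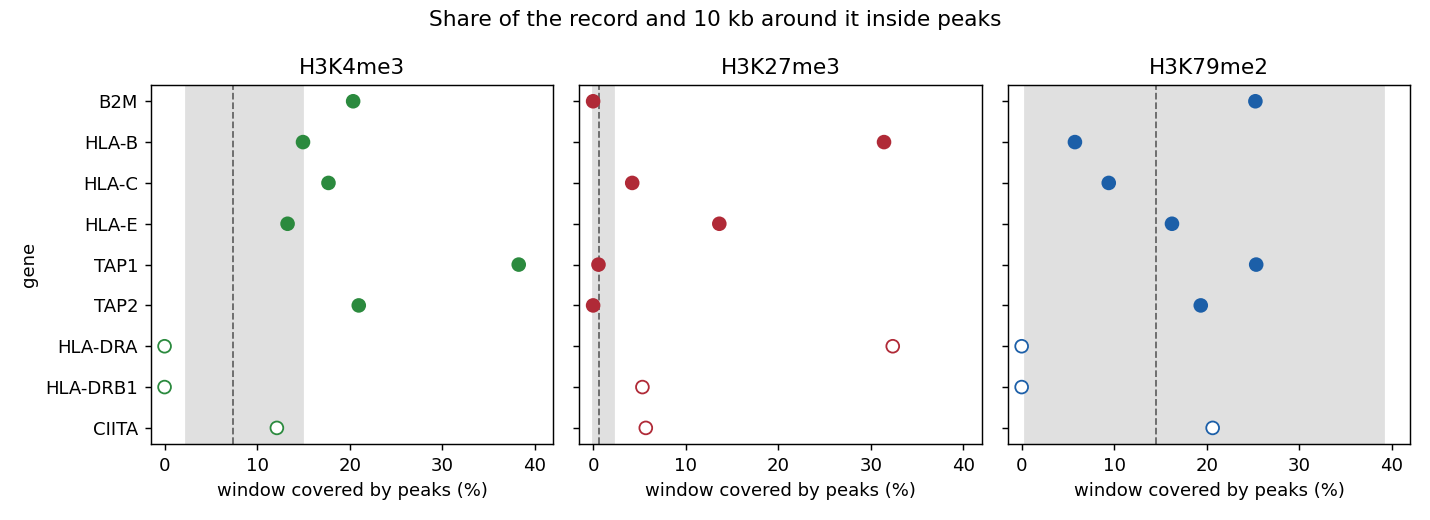
Percent of each gene record with 10 kb on both sides that lay inside peaks, 1 panel per mark and 1 library per panel. Filled points are class I pathway genes and open points class II genes with CIITA, the dashed line is the median and the grey band the interquartile range of all 19974 genes. HLA-DRA and HLA-DRB1 sit at 0 for H3K4me3 and H3K79me2, while HLA-B at 31.4% and HLA-DRA at 32.4% lie close together for H3K27me3.

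B2M, at chromosome 15, 44711517 to 44718145, had the longest and strongest H3K79me2 peak of the 6 class I pathway records. Its H3K4me3 peak was 4576 bp long, from 1336 bp before to 3239 bp after the start, with a fold of 20.6 over the caller's background. The H3K79me2 peak was 6489 bp long and reached 4888 bp past the start, covering 73.8% of the record at 4.87-fold with −log10 q of 7.31. Of all genes called for H3K79me2, 8.76% had a fold as high at an end. The nearest H3K27me3 peak was 13900 bp away. PATL2 starts 127 bp from the B2M start on the opposite strand and inside both peaks, so peaks alone cannot tell which of the genes they belong to.

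HLA-B and HLA-C lie on chromosome 6, at 31353875 to 31357179 and 31268749 to 31272092, and run from the higher to the lower coordinate. The H3K4me3 peak of HLA-C was 3178 bp long with a fold of 22.3 and covered 71.8% of the record. That of HLA-B was 2942 bp long with a fold of 15.7 and covered 70.4%. Fold values as high as that of HLA-C were found at 5.66% of the genes called for H3K4me3, and as high as that of HLA-B at 52.9%. In both genes the peak reached well past the start, 2401 bp in HLA-C and 2325 bp in HLA-B, and 776 and 616 bp before it. H3K79me2 was weaker in this pair than in the other class I pathway genes. HLA-C had a peak of 2046 bp at 2.47-fold with −log10 q of 1.14, and HLA-B one of 1341 bp at 2.41-fold with −log10 q of 1.05, which did not reach the start. Neither peak passed a q of 0.05, and there the class I pathway genes called for H3K79me2 were 4 of 6.

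HLA-E, at chromosome 6, 30489509 to 30494194, had the lowest H3K4me3 fold of the class I pathway genes with 14.8. The peak was 2313 bp long and covered 38.2% of the record. H3K79me2 spread further than in HLA-B or HLA-C, over 76.1% of the record, in a peak of 4008 bp at 3.34-fold with −log10 q of 3.03. HLA-E thus had less H3K4me3 fold than HLA-C and more H3K79me2 fold. The promoter table gives no start for HLA-E, and both peaks cross the lower end of its record.

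TAP1 and TAP2 lie beside each other in the class II region of chromosome 6, at 32845209 to 32853704 and 32821831 to 32838739, with PSMB8, an immunoproteasome subunit gene, between them. TAP1 had the highest H3K4me3 fold of the 9 records, 25.2, a level reached at 0.959% of the genes called for the mark. The peak, 3363 bp long, also held the start of PSMB9, another immunoproteasome subunit gene, 488 bp away on the opposite strand. TAP2 had an H3K4me3 peak of 3141 bp at 18.1-fold, reaching 371 bp before and 2769 bp past its start. Another peak of 3290 bp at 22.2-fold held the start of PSMB8 and ended inside the TAP1 record. H3K79me2 lay over the first part of TAP2 in a peak of 2815 bp at 4.03-fold, with 3 weaker peaks further along the gene. At TAP1 the H3K79me2 peak was 1352 bp long at 2.94-fold and stopped short of the first start, at −log10 q of 1.90. The TAP1 call for this mark rested on 31.0% of the window, close to the 25% that the rule asks, and was lost with a window of 10000 bp inward. Within the joint stretch of the transporter windows, H3K27me3 was limited to 1 peak of 165 bp at 2.31-fold beyond TAP1.

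**Figure D2:**
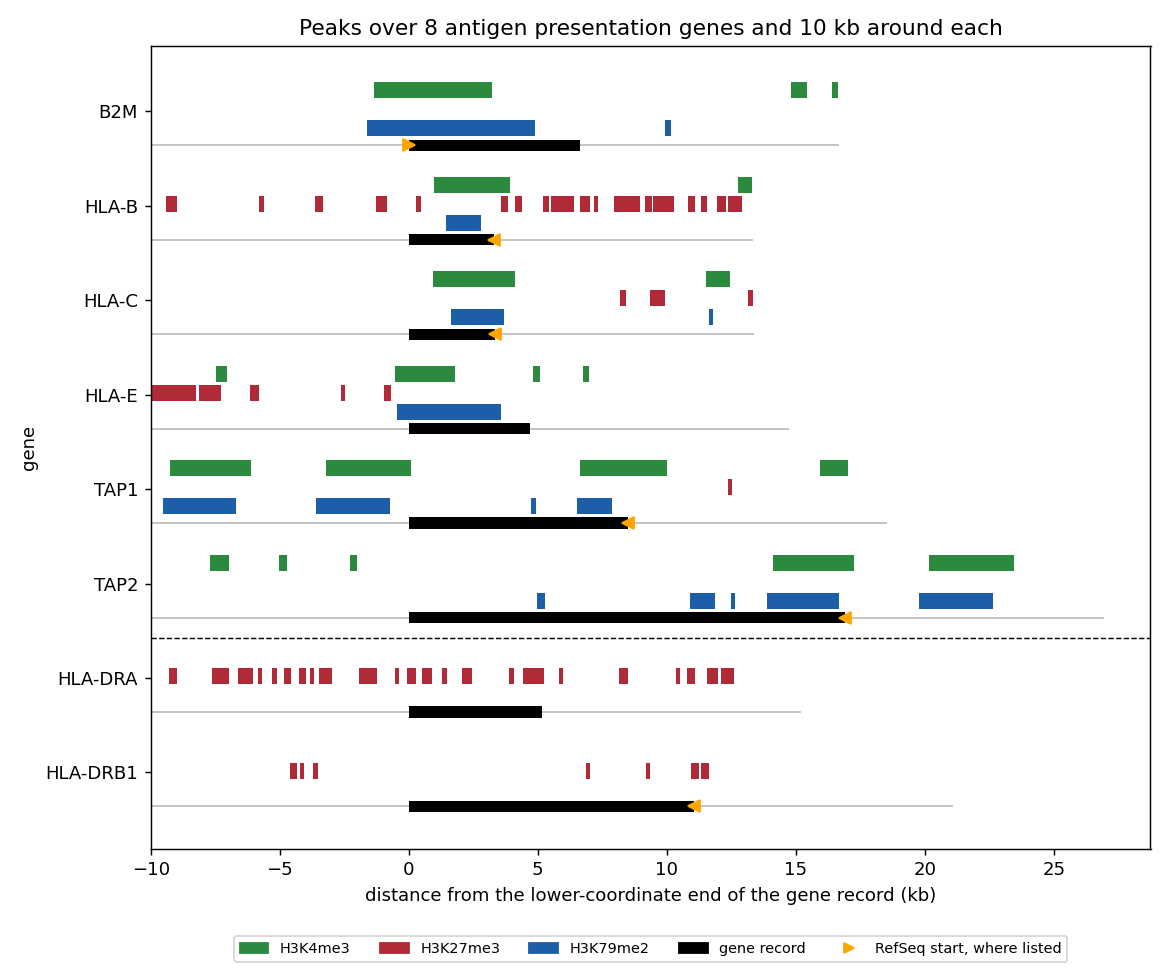
Peaks of H3K4me3 (green), H3K27me3 (red) and H3K79me2 (blue) over 8 gene records (black) and the 10 kb on both sides, by distance in kb from the lower-coordinate end of each record. Orange arrowheads are RefSeq starts and their direction where the promoter table lists them, and the dashed line parts class I pathway from class II genes. Green and blue bars lie over the records above the line, and below it all bars are red.

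H3K27me3 lay mostly beside HLA-B, and beside HLA-E rather than over it. Upstream of HLA-B, in the 10 kb past its start, 13 H3K27me3 peaks covered 5700 bp, of which 5 passed a q of 0.05. The strongest was 1032 bp long at 5.01-fold, with −log10 q of 4.14. The first of the 13 lay inside the upstream edge of the H3K4me3 peak of HLA-B and shared 263 bp with it. On the other side of HLA-B, 5 peaks covered 1418 bp of the window and none passed a q of 0.05. The HLA-B record itself held 1 peak of 205 bp at 2.69-fold, and no other class I pathway record held any. Below HLA-E, 5 H3K27me3 peaks covered 3365 bp of the window, the longest of them 2300 bp at 4.75-fold. The last of these ended 695 bp before the record. HLA-C had 3 such peaks over 986 bp, all upstream and the nearest 4859 bp away.

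HLA-DRA, at chromosome 6, 32439887 to 32445046, had H3K27me3 peaks along its whole length. Its window held 23 peaks over 8143 bp, 12 of them with q of 0.05 or below, and 6 touched the record and covered 41.1% of it. A share of the record as high was found in 1.35% of all genes. The strongest of the 6 was 392 bp long at 4.23-fold with −log10 q of 2.64, and the windows at the lower and upper ends were covered to 47.4% and 48.5%. The nearest H3K4me3 peak was 23968 bp away and the nearest H3K79me2 peak 38776 bp. The gene table held no other record within 10 kb of it.

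HLA-DRB1, at chromosome 6, 32578775 to 32589848, had less of the mark. It had 7 H3K27me3 peaks over 1655 bp in its window, of which 3 touched the record and covered 4.36% of it. At the start, a peak of 344 bp at 3.80-fold with −log10 q of 2.09 ran from 196 bp before to 147 bp after it, over the X1 form and the CCAAT boxes printed above. A second peak of 306 bp at 3.85-fold followed upstream. Beyond it no peak of any list was found for 13716 bp, from 32590423 to 32604138. The nearest H3K4me3 peak was 20151 bp away and the nearest H3K79me2 peak 177664 bp. The HLA-DRB1 call for H3K27me3 rested on these 2 peaks, which covered 32.5% of the window at its upper end, and it was lost with windows of 2000 bp, where HLA-DRA kept its call and 8.28% of all genes were called. The calls of both genes were kept at a q of 0.05 and lost when only peaks with −log10 q of 5 or more, or with fold of 5 or more, were kept, and when 50% cover was required, settings in which 1.21%, 1.69% and 4.28% of all genes were called.

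CIITA, at chromosome 16, 10866206 to 10943021, showed different marks in different parts of its 76816 bp. The gene runs from the lower to the higher coordinate and is known to start from several alternative promoters. At its lower end there was no peak of any mark within 1000 bp, and the nearest H3K4me3 peak below the record lay 3103 bp away at 2.28-fold. Inside the record, starting 12289 bp from the lower end, was an H3K4me3 peak of 970 bp at 9.65-fold with −log10 q of 20.8. H3K27me3 peaks overlapped 756 bp of it, or 77.9%, a share reached by 0.946% of the 67781 H3K4me3 peaks. The overlapping H3K27me3 peaks were 287 and 936 bp long, both at 4.23-fold with −log10 q of 2.64. Of the 20 H3K27me3 peaks in the record, 10 lay within 5000 bp of this H3K4me3 peak, and 4 of those passed a q of 0.05, against 1 of the other 10. Whether the marks sat on the same chromosomes and cells cannot be told apart from peak lists. H3K79me2 was not found around the internal peak.

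The far end of the CIITA record carried a different set. DEXI, a gene of the opposite strand, lies inside the record near its upper end, over 13578 bp, and starts at 10942468. An H3K4me3 peak of 5957 bp at 16.6-fold held that start, and an H3K79me2 peak of 10677 bp at 3.70-fold lay over DEXI. CLEC16A, beginning 1542 bp beyond the CIITA record, had its own H3K4me3 peak of 3589 bp at 12.2-fold and an H3K79me2 peak of 16427 bp at 3.27-fold. The calls of CIITA for H3K4me3 and H3K79me2 came from this end alone, where 61.4% and 87.0% of the windows were covered. Without the peaks from the DEXI record onward, a setting chosen after seeing the data, CIITA had neither call. The last H3K27me3 peak of the record ended 17917 bp before the first H3K79me2 peak over DEXI, and no H3K4me3 peak lay between them.

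**Figure D3:**
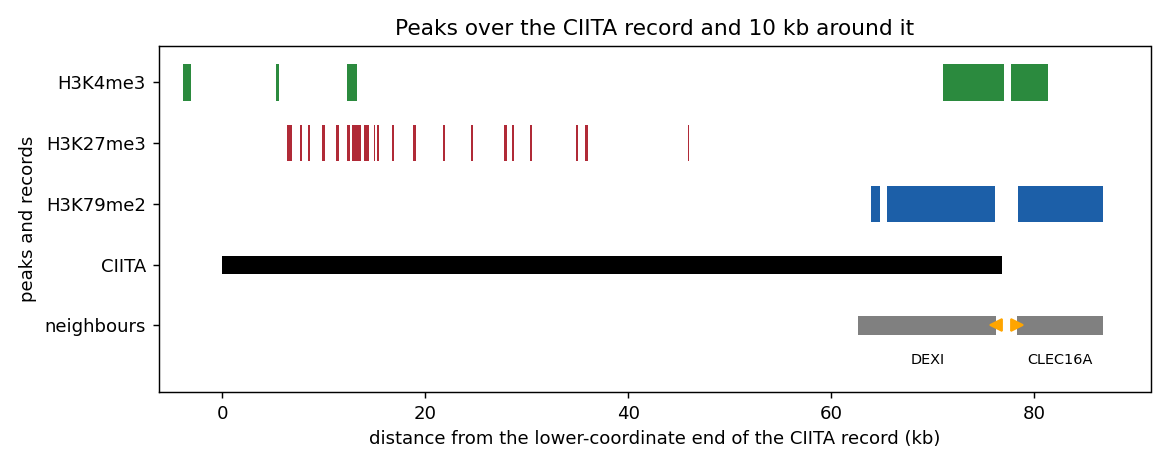
Peaks of the 3 marks over the CIITA record and 10 kb on both sides, by distance in kb from its lower-coordinate end, with the records of DEXI and CLEC16A (grey, CLEC16A cut at the window's edge) and their starts (orange arrowheads). Of the 20 H3K27me3 peaks, 10 lie within 5000 bp of the internal H3K4me3 peak, and the last ends 46003 bp from the lower end. The H3K79me2 bars begin at the DEXI record.

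In the active marks HLA-DRA and HLA-DRB1 had no peak whose strength could be compared, and peak strength did not part CIITA from the class I pathway genes. The highest fold touching a class I pathway record ran from 14.8 to 25.2 for H3K4me3 and from 2.41 to 4.87 for H3K79me2. CIITA lay inside both ranges, at 16.6 and 3.70, through the peaks over DEXI. For H3K27me3 the highest folds touching a record were 4.23 at HLA-DRA, 4.23 at CIITA and 3.80 at HLA-DRB1, against 2.69 at HLA-B. Over the whole windows the order was different, with 5.01 beside HLA-B and 4.75 beside HLA-E above the 4.62 of HLA-DRA. Folds of different marks come from different lists and are not compared with each other. The H3K4me3 peaks at class I pathway records were far past the caller's threshold, with −log10 q from 47.5 to 88.8, whereas those of H3K79me2 ran from 1.05 to 7.31. When only peaks with −log10 q of 5 or more were kept, B2M was the 1 class I pathway gene with an H3K79me2 call, against 12.6% of all genes.

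**Figure D4:**
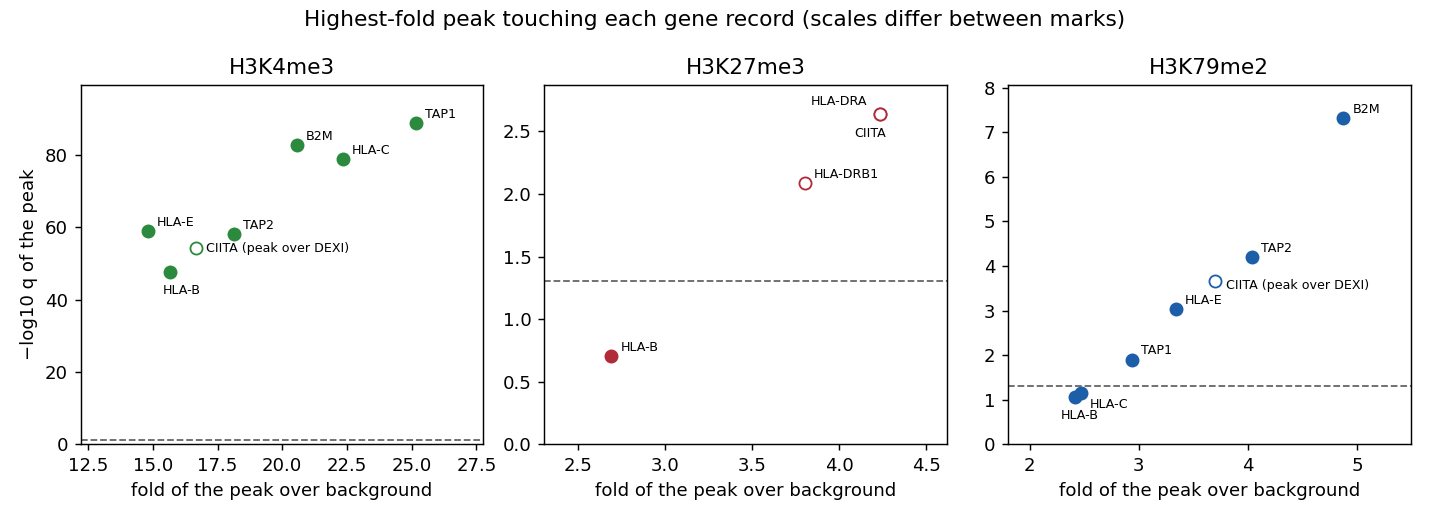
Fold over the caller's background (x) and −log10 q (y) of the highest-fold peak touching each record, 1 panel per mark with its own scales. Filled points are class I pathway genes, open points class II genes with CIITA, and the dashed line marks a q of 0.05. HLA-B and HLA-C fall under the line for H3K79me2, and HLA-DRA and CIITA share 1 place in the H3K27me3 panel.

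The genes most like each member were sought over 6 values, the covered share and the fold at an end in each of the 3 marks. Likeness was the largest difference in percentile rank among these values, which share the libraries and rest on 3 marks. For TAP1 the nearest gene was RFNG, 0.756 percentile points apart, followed by ADA. B2M was nearest to ANP32E (1.25 points), FOSL2 and C1orf174, and HLA-C to SPTBN1 (1.90 points), ELOVL7 and NUCB2. The nearest genes of HLA-E (HUWE1, 4.10 points), TAP2 (USP19, 5.11 points) and HLA-B (LRRFIP1, 5.58 points) were further off. HLA-DRA was nearest to the olfactory receptor gene OR1L8, the tyrosinase gene TYR and FCN1 (0.0275, 0.208 and 0.223 points), and HLA-DRB1 to FLI1, FNDC5 and CDH8. These genes all had 0 in every H3K4me3 and H3K79me2 value, and their H3K27me3 folds were tied, at 3.46 and 3.85. The small distances thus rest on the H3K27me3 share alone and are not comparable with those of the other members. The nearest gene of CIITA, LOC124904791 at 3.59 points, matched the values at the DEXI end.

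The other genes of the pathways were counted by the same rule. Of 17 partners of class I, 16 had H3K4me3 (67.9% of all genes), 14 had H3K79me2 (50.9% of all genes) and 0 had H3K27me3, near the 9.1% of all genes. TAPBP, the gene of tapasin, which bridges TAP and the heavy chain, had H3K4me3 at 24.8-fold and H3K79me2 over 99.1% of its record. The chaperone genes CALR and PDIA3 had H3K4me3 at 19.0- and 13.1-fold and H3K79me2 at 4.58- and 4.89-fold. The stress ligand gene MICA had H3K79me2 over 88.6% of its record at 4.80-fold. The proteasome activator gene PSME2 had H3K4me3 at 23.4-fold, and NLRC5, the class I transactivator, at 16.6-fold with H3K79me2 at 2.19-fold. HLA-G, a non-classical class I gene known from the placenta, was the partner without an H3K4me3 call, with a peak of 3.71-fold over 38.2% of its record. H3K27me3 covered 10.5% of its 10 kb window, more than the 5.33% of HLA-DRB1 and the 5.69% of CIITA. At least 500 bp of H3K27me3 in the window was found at 4 of the 17 (HLA-G, ERAP1, PSMB9 and NLRC5), against 43.5% of all genes. HLA-F, HLA-G and PSMB9 had no H3K79me2 call. PSMB9 shares the H3K4me3 peak at its start with TAP1 and adds no separate observation there. PSMB8 had another peak at its start, which reached into the far end of the TAP1 record. The record of ERAP2, also in this list, lies inside that of ERAP1.

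Of 14 partners of class II, 4 had H3K4me3 and 1 had H3K79me2, against 67.9% and 50.9% of all genes. H3K27me3 was called at 6 of them, or 42.9%, against 9.1% of all genes. At least 500 bp of H3K27me3 in the window was found at 12 of the 14, against 43.5% of all genes. The genes with H3K4me3 were LGMN (19.7-fold), IFI30 (10.9-fold), MARCHF1 (9.59-fold) and CTSS (2.18-fold), which encode lysosomal enzymes and a ubiquitin ligase and lie outside the HLA region. LGMN, a lysosomal protease gene with uses outside class II, was the one with H3K79me2, over 96.8% of the window at an end. None of the 9 listed HLA class II genes had either active call. H3K27me3 was called at HLA-DPA1 (4.29-fold over 73.2% of an end window), HLA-DPB1 (5.39-fold over 67.3%), HLA-DOA (3.93-fold over 49.7%), HLA-DRB5, HLA-DMB and HLA-DQA1. CD74, the invariant chain gene, had no call for any mark. The records of HLA-DPA1 and HLA-DPB1 overlap, so any peak in the shared stretch counts for both, and their calls may not be separate observations.

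The 15 regulators common to both pathways all had H3K4me3 and H3K79me2, against 67.9% and 50.9% of all genes, and 0 had H3K27me3, near the 9.1% of all genes. RFX5 and RFXANK, whose products act in the complex that binds the X box, had H3K4me3 at 14.1- and 16.6-fold, and NFYA, whose product binds the CCAAT box, at 19.3-fold. The interferon gamma receptor genes IFNGR1 and IFNGR2 had H3K79me2 at 4.25- and 4.63-fold, and the receptor kinase genes JAK1 and JAK2 at 2.05- and 2.51-fold at an end. JAK1, IRF2 and SOCS1, a kinase, a factor that competes with IRF1 and an inhibitor of the kinases, had H3K4me3 at 23.5-, 22.2- and 20.4-fold. IRF1, an interferon-induced factor, had H3K4me3 at 18.3-fold and H3K79me2 at 2.90-fold. Whether peaks of neighbouring genes gave any of these calls was not tested.

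**Figure D5:**
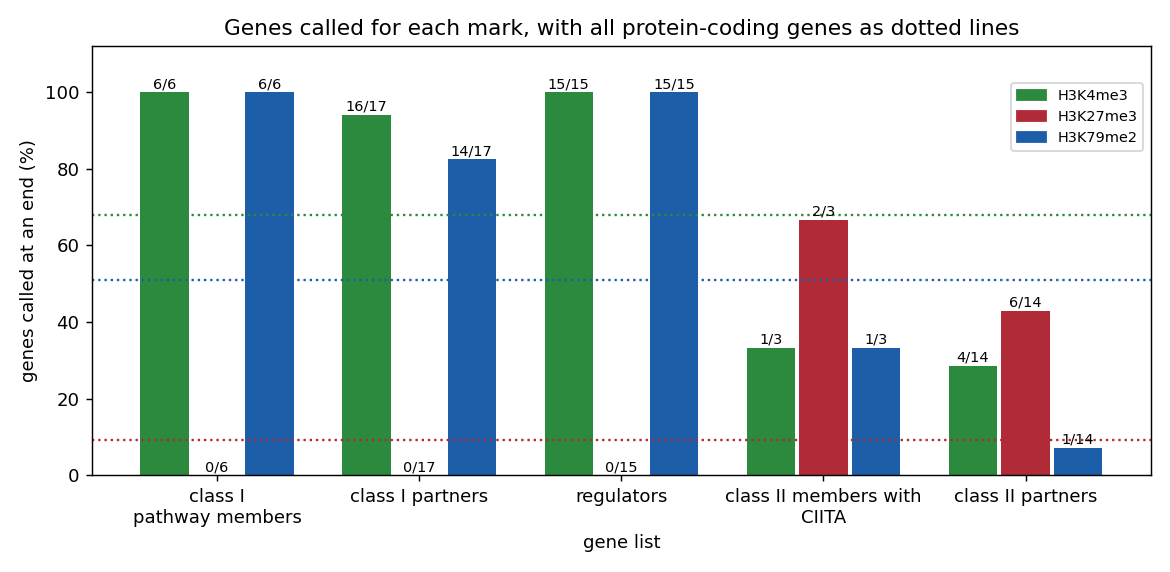
Percent of genes in each list called at an end for H3K4me3 (green), H3K27me3 (red) and H3K79me2 (blue), with the number called over the number in the list above each bar. Dotted lines are the shares of all 19974 genes, 67.9%, 9.1% and 50.9%. The class II lists are the ones with red bars, 2 of 3 and 6 of 14.

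The cell type was checked on markers. All 8 basal mammary epithelial markers had H3K4me3 and H3K79me2, against 67.9% and 50.9% of all genes, among them KRT5, KRT14 and CDH3. Of 8 markers of antigen-presenting cells, 4 had H3K4me3 (CD83, CD14, CSF1R and ITGAX), or 50% against 67.9% of all genes. The number with H3K79me2 was 0, against 50.9% of all genes. PTPRC, MS4A1 and CD79A were among those with neither. The 3 T cell markers had neither active mark. H3K27me3 was called at 0 of the 8 basal, 0 of the 8 antigen-presenting cell and 0 of the 3 T cell markers, near the 9.1% of all genes. The H3K4me3 calls of CSF1R and ITGAX rested on peaks of 3.31- and 2.98-fold. The lists hold 67781 peaks of H3K4me3, 393202 of H3K27me3 and 112731 of H3K79me2, and 48.9%, 26.3% and 14.3% of them passed a q of 0.05.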

How the data were processed

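Peak lists of 3 libraries were used, 1 per mark. The submitters' processing notes name Bowtie2 2.3.1, MACS2 2.1.1 and build hg38. Deposited peak names carry p0.05, and those of H3K4me3 and H3K79me2 the word broad. Each peak carries the authors' fold, the ratio of signal to what the caller expected, and the deposited −log10 p and −log10 q are the caller's. Other deposited columns used are chromosome, start and end. Handling of the control, of duplicates and of multiply mapping reads: not given in the sources used here.

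Genes (RefSeq, GRCh38.p14, the same build) were read at both record ends, since 3 members have no listed start. Coverage was computed in Python 3.11.15 with pandas 2.3.3 and checked on simulated intervals, and promoters were aligned with Biopython 1.88. Q of 0.05, stricter peaks, other windows and other cover were tried. All 9 members were named, with up to 4 called genes per list and mark, exceptions where 5 or fewer, some of the neighbours, and up to 3 likest genes. NLRC5, RFX5, IRF1, JAK2, IFNGR2 and the H3K4me3 values of HLA-DOB and HLA-DMB fall outside that rule and were added with their values in view. Members and lists were chosen with earlier results of these data known. No score over lists was tested. Values of some listed genes are not reported here.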

Additional observations from a re-analysis of the deposited data

How the results depend on the processing

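Of 102 recomputed counts (12 counts under the settings tried), 77 stayed within 1.5 times the value reported and 25 did not; shares of all genes at each setting follow in parentheses. At a q of 0.05 all 12 did, the class I pathway genes with H3K79me2 at an end being 4 in place of 6 (43.3%). At −log10 q of at least 5, H3K27me3 was at 0 class II genes by ends (1.21%) and at 0 and 0 genes of class I and II by windows (3.41%). H3K79me2 was then at 1 class I gene, B2M, and 0 class II genes by ends (12.6%) and by windows (18.7%). At fold of at least 5, H3K27me3 was at 0 class II genes by ends (1.69%), and by windows at 1 class I gene, HLA-B, and 0 class II genes (5.44%). H3K79me2 was then at 0 genes of both classes by ends (3.56%) and by windows (5.66%). The H3K4me3 counts were the same in these settings. With 1 bp covered, H3K27me3 was at an end of 2 class I genes, HLA-B and HLA-E, near the share of all genes (24.7%). With 50% covered it was at 0 class II genes (4.28%), and with windows of 2000 bp at 1, HLA-DRA (8.28%). At listed starts, which leave HLA-DRB1 as the class II gene, H3K4me3 was at 0 (67.8%), H3K27me3 at 1 (6.5%) and H3K79me2 at 0 (52.2%), since fewer genes were counted. With 0 bp around the record, 0 class I genes had 500 bp of H3K27me3 (28.2%), and with 5000 bp 1 did, HLA-B (36%). Without the peaks from DEXI onward, a setting chosen after seeing the data, the class II genes with H3K4me3 and H3K79me2 at an end were 0 and 0 (67.9% and 50.9%), and those with 500 bp of H3K79me2 were 0 (72.3%). No paired analysis was possible because each mark has 1 library. Depth is unknown, so the lack of a peak is no measure of absence.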

Other observations

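Beyond the 10 kb windows, the surroundings of the class II genes differed from one another. Within 50 kb of HLA-DRA, 98 H3K27me3 peaks covered 38210 bp, or 36.3%, with folds up to 6.93, beside 1 H3K4me3 peak of 190 bp and 1 H3K79me2 peak of 464 bp. Within 100 kb the share was 33.7%, from 180 peaks. Around HLA-DRB1 the share rose with distance, from 5.33% in the 10 kb window to 15.3% within 100 kb, with 0 H3K79me2 peaks in any of them and 1 H3K4me3 peak, of 331 bp at 5.29-fold, within 50 kb. Around CIITA the H3K27me3 share fell from 5.69% to 3.93% within 50 kb and 3.23% within 100 kb, where 15 H3K4me3 and 19 H3K79me2 peaks were found.

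The transporter genes stood in a gap of this region. H3K27me3 covered 0% of the TAP2 window, 18.2% within 50 kb and 27.4% within 100 kb, where 158 peaks were found, and for TAP1 the shares were 0.579%, 10.7% and 23.9%. Around B2M, on another chromosome, the share was 1.24% within 50 kb and 0.724% within 100 kb. Around HLA-E it was 13.6% in the 10 kb window and 19.6% within 100 kb.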
